A study of Mus musculus with 4 samples.

Results

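The 10 genes described here are Dcn, Lum, Col1a1, Col1a2, Col3a1, Sparc, Lox, Timp1, Acta2 and Des, which encode extracellular matrix proteins, the enzymes and inhibitors that act on them, and cytoskeletal proteins used as markers of hepatic stellate cells. They were taken by gene name from the 37072 genes named on a mouse expression array, and were selected on their genotype and palmitate differences on these same arrays, so those levels and differences are given as a description with no test. Primary hepatocytes were isolated from C57BL/6 mice and harvested 24 h after seeding, and total RNA was hybridised in 1 colour (Cy3). There were 4 groups with 1 array each: untreated control hepatocytes, untreated Drp1LiKO hepatocytes, and hepatocytes of both genotypes given 200 μM palmitate. Drp1LiKO hepatocytes carry Drp1 flox/flox alleles and Cre recombinase under the albumin promoter, which is active in hepatocytes, and controls were floxed littermates without Cre per the methods, while the labels call the control cells of both conditions wild-type and title the palmitate control Drp1flox. Whether both controls had 1 genotype is not settled by these sources, which bears on the control values with against without palmitate. The methods used male mice and give no age for these cells. Cell suspensions were passed through a 70-μm strainer and pelleted at 50 g, which enriches hepatocytes without a sort, and the plates were coated with type I collagen. Medium was changed after 4 h to discard cells that had not attached.

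Hepatic stellate cells lie between the hepatocytes and the sinusoidal endothelium, store retinoids in the resting state and become myofibroblasts when activated. Activated stellate cells are the main source of fibrillar collagen in the injured liver. Type I and type III collagens are secreted as procollagens, trimmed outside the cell, assembled into fibrils with small leucine-rich proteoglycans such as decorin and lumican on their surface, and cross-linked by lysyl oxidase. Tissue inhibitors of metalloproteinases slow the breakdown of these fibrils.

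The array held 25 probes for the 10 genes, each 60 bases long, and 14 of them were detected, meaning well above background by the scanner software's call, on 1 or more arrays. The first 30 bases of 6 of those probes are printed because the genotype differences below rest on them, 5′ to 3′ in the sense of the transcript, with positions in mm9 as the scanner files give them. Decorin was read on the plus strand at chr10:96980233-96980292, lumican at chr10:97035210-97035269, Col1a2 at chr6:4490619-4490678, Col3a1 at chr1:45405589-45405648, Timp1 at chrX:20451675-20451733 and the brighter Sparc probe on the minus strand at chr11:55208939-55208998.
Dcn: aacaccttcagatgtgtctatgtgcgttct
Lum: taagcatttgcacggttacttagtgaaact
Col1a2: accaagaattccgtgtggaggttggccccg
Col3a1: ataagccaaactctctgaaaccccagcaaa
Timp1: tctgaggactaccagagccgtcactttgct
Sparc: ggctgttccgcctggggataaggtgctaac

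For Col1a1, the 2 probes printed in repeat on the array were not independent. They lie at chr11:94813075-94813134 and chr11:94813115-94813174 and share 20 bases, in capitals below at the end of the first probe and at the start of the other one. No other pair of the 14 probes shared a run of more than 10 bases.
Col1a1 probe 1: tttttaccttTGACCAACTGAACGTGACCA
Col1a1 probe 2: TGACCAACTGAACGTGACCAaaaaccaaaa

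Levels are given as log2 signal minus the 75th percentile of each array, which stood at signals of 485, 542, 424 and 468 on the control, Drp1LiKO, control palmitate and Drp1LiKO palmitate arrays, an order kept below wherever 4 values are given. A level is comparable between arrays for 1 probe and not between probes. Between 44.7% and 51.1% of probes were well above background on an array, and no spot was saturated. The error given as ± is the scanner software's own spot error, combined over the 2 arrays of a difference. It does not hold the spread between mice, which 1 array per group cannot show. The targeted gene, Dnm1l, which encodes Drp1, read 2.42 and 1.07 on the untreated control and Drp1LiKO arrays and 2.43 and 1.01 with palmitate on the probe that was detected on every array. Its other probe was detected on 2 arrays only and read near background, from -4.77 to -4.41. That probe did not show the same difference, at -0.35 untreated and 0.22 with palmitate. Both untreated arrays came from 1 slide and both palmitate arrays from another, so palmitate and slide cannot be told apart, whereas each slide carried both genotypes. In whole cultures, fewer cells of a type and less RNA per cell cannot be told apart.

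Of the 10 genes, 9 were detected on 1 or more arrays and 7 on all 4. On each control array 7 of the genes were detected and on each Drp1LiKO array 9 were, the additional ones being Lum and Col3a1. The Drp1LiKO arrays also detected more of all probes, 51.1% against 48.2% on the control array untreated and 48.2% against 44.7% with palmitate. In untreated hepatocytes, 5 genes (Dcn, Col1a2, Col3a1, Lum and Sparc) were at least 2-fold higher in Drp1LiKO and 2 (Lox and Timp1) at least 2-fold lower, with 1 array a group and no test. Over all 19874 genes compared there, 10.7% were past 2-fold, 6.11% higher and 4.58% lower. With palmitate, 4 genes (Dcn, Col1a2, Col3a1 and Sparc) were at least 2-fold higher in Drp1LiKO and Lox was lower, where 7.74% of 18890 genes were past 2-fold, 4.28% higher and 3.46% lower. With arrays scaled to their median instead, the median over all genes moved to -0.20 untreated and -0.19 with palmitate, and the share of higher among all genes past 2-fold went from 57.2% to 43.0% and from 55.3% to 41.8%, while the members past 2-fold and their directions were unaltered. These contrasts were known when the genes were chosen, so the shares are background only and nothing is read from the members' counts. The median difference over the 9 genes compared was 1.30 untreated and 0.87 with palmitate. Lum and Col3a1 entered it as bounds, detected on the Drp1LiKO arrays alone. Over all genes the median was -0.02 and -0.03. Nothing is read from that contrast either, since the genes were chosen on it. Just inside the 2-fold limit stood Timp1 at -1.05, untreated, and Sparc at 1.20, with palmitate, and just outside it stood Col1a1 at 0.94, untreated, and Lum at a bound of 0.87, with palmitate.

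**Figure D1:**
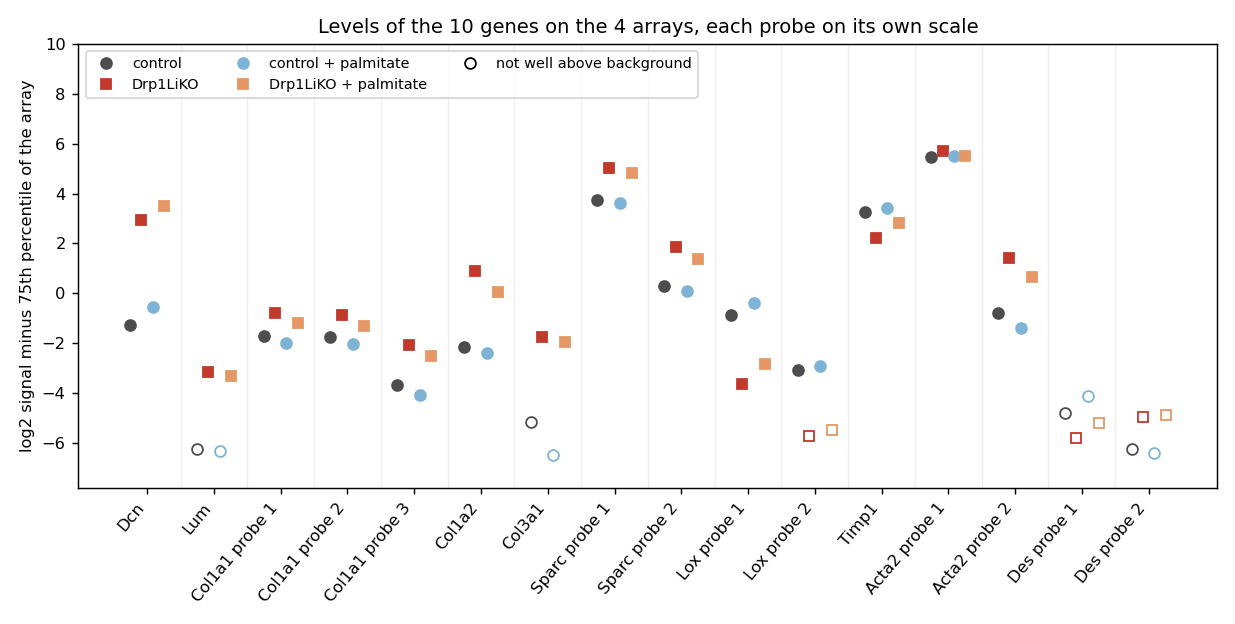
Level of each probe on the 4 arrays (y axis: log2 signal minus the 75th percentile of the array; x axis: probes detected on 1 or more arrays, and both Des probes). Each point is 1 array, open where the probe was dim, and probes cannot be compared with each other; Dcn, Col1a2 and Sparc sit higher on both Drp1LiKO arrays and Lox lower.

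Decorin, a proteoglycan that binds collagen fibrils and TGF-β, showed the widest genotype difference among the 7 genes measured on all arrays. Its signal was 203 on the control array and 4156 on the Drp1LiKO array, and 290 and 5263 on the corresponding palmitate arrays. On the log2 scale the levels were -1.26, 2.94, -0.55 and 3.49. Both Drp1LiKO arrays were high and both control arrays low, giving a difference of 4.19 ± 0.21 (18.3-fold) untreated and 4.04 ± 0.21 (16.4-fold) with palmitate. Counting Dcn itself, 13 genes of 19874 were that far or farther above control in the untreated comparison and 8 of 18890 with palmitate.

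Lumican, another leucine-rich proteoglycan of collagen fibrils, was much dimmer. Its probe gave signals of 60.5 and 47.5 on the untreated and palmitate Drp1LiKO arrays and was dim on both control arrays, where the signals were 6.39 and 5.33. Only a bound can therefore be given, against the lowest detected level of the control array. Lum was at least 2.97-fold higher in Drp1LiKO untreated and at least 1.83-fold higher with palmitate. The lowest detected level of the control palmitate array lay higher, at -4.17 against -4.74 for the control array, while Lum itself read close values of -3.16 and -3.30 on the Drp1LiKO arrays.

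Col1a2, which encodes the α2 chain of type I collagen, read -2.14, 0.88, -2.39 and 0.05 on the 4 arrays. Drp1LiKO stood above control in both pairs, by 3.02 ± 0.21 (8.12-fold) untreated and by 2.44 ± 0.23 (5.43-fold) with palmitate. The other 3 probes named Col1a2 target Ensembl transcripts and were dim throughout. Col3a1, the single chain type of type III collagen, gave -1.75 and -1.97 on the untreated and palmitate Drp1LiKO arrays and was dim on both control arrays. It was at least 7.90-fold higher in Drp1LiKO untreated and at least 4.60-fold higher with palmitate, and its other 2 probes were at background throughout. On the log2 scale these bounds were 2.98 and 2.20, and another background correction (normexp) gave 1.44 and 1.08.

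Col1a1, the partner α1 chain of type I collagen, differed less on its brightest probe. Probe 1 was read from 9 or 10 spots per array after outlier removal and averaged -1.72 ± 0.10 (SD over spots) on the control array and -0.78 ± 0.07 on the Drp1LiKO array. With palmitate the averages were -1.98 ± 0.10 and -1.20 ± 0.08. The spots of the 2 genotypes did not overlap within either pair, the highest control spot lying at -1.58 and the lowest Drp1LiKO spot at -0.96 in the untreated pair, but these spots share 1 RNA sample each and are not replicates. The genotype difference was 0.94 ± 0.21 (1.92-fold) untreated and 0.79 ± 0.22 (1.73-fold) with palmitate, and the overlapping probe 2 gave 0.88 and 0.73.

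A further Col1a1 probe, at chr11:94814188-94814247 and without overlap with the others, gave a genotype difference of 1.58 ± 0.26 (2.98-fold) and 1.59 ± 0.36 (3.01-fold). It was dimmer, with signals of 38.3, 128, 24.9 and 82.7. All 3 measured Col1a1 probes were thus higher on both Drp1LiKO arrays, past 2-fold on the dimmest and under it on the brighter ones. The genotype difference of Col1a2 was wider than that of any of them. The remaining Col1a1 probe was at background.

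**Figure D2:**
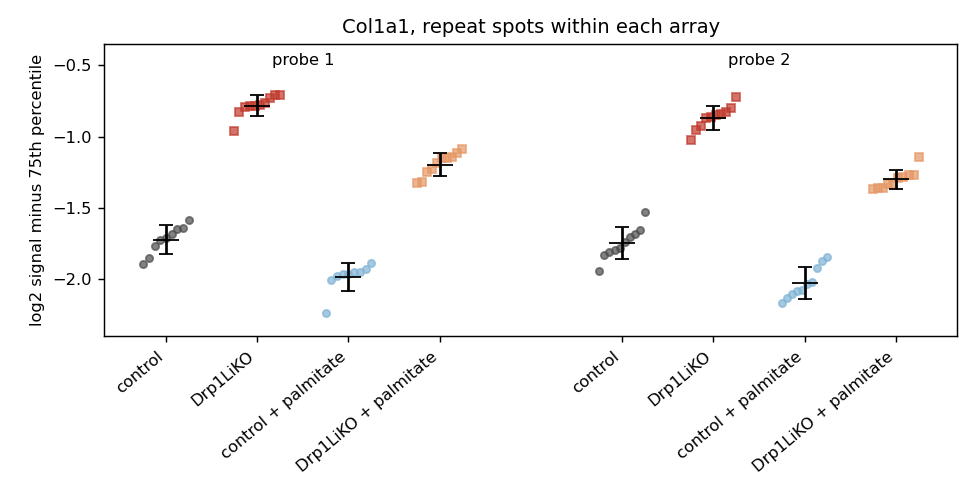
Repeat spots of the 2 overlapping Col1a1 probes on each array (y axis: log2 signal minus the 75th percentile; points: single spots in order of value; bars: mean ± SD over the 9 or 10 spots). Drp1LiKO spots lie above control spots untreated and with palmitate, and each cloud comes from 1 RNA sample.

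Sparc encodes osteonectin, a secreted glycoprotein that binds collagen during its folding and fibril assembly. The brighter probe read 3.73 and 5.02 on the untreated control and Drp1LiKO arrays and 3.63 and 4.83 on the palmitate arrays. A second probe, whose 60 bases span 2658 bases of genome and so cross an intron, read 0.30, 1.85, 0.09 and 1.39 in the same order. Both probes were higher in Drp1LiKO past 2-fold in both pairs, by 1.30 and 1.55 untreated and by 1.20 and 1.30 with palmitate, each with an error of 0.20.

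Lox encodes lysyl oxidase, the enzyme that cross-links collagen and elastin, and it stood on the other side of control from the collagens. The brighter of its probes, on the minus strand of chromosome 18, read -0.88 on the control array and -3.65 on the Drp1LiKO array, and -0.37 and -2.83 with palmitate. Both Drp1LiKO arrays were low, giving a difference of -2.77 ± 0.24 (6.80-fold lower) untreated and -2.46 ± 0.23 (5.49-fold lower) with palmitate. The second Lox probe was detected on the control arrays only and was at least 3.69-fold lower in Drp1LiKO untreated and at least 3.06-fold lower with palmitate. Counting Lox itself, 104 of 19874 genes lay that far or farther below control in the untreated comparison and 37 of 18890 with palmitate.

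Timp1 encodes the tissue inhibitor of metalloproteinases that is widely used as a transcript marker of fibrogenesis. Its single probe gave signals of 4665 and 2525 on the untreated control and Drp1LiKO arrays and of 4539 and 3332 on the palmitate arrays. Drp1LiKO minus control was -1.05 ± 0.20 (2.06-fold lower) untreated and -0.59 ± 0.20 (1.51-fold lower) with palmitate. Timp1 thus stood below control in both pairs and past 2-fold in the untreated pair alone. The genotype difference was 0.46 ± 0.29 nearer to 0 with palmitate, a value from 4 arrays on 2 slides that was not tested.

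Acta2 encodes smooth muscle α-actin, the marker of activated stellate cells and myofibroblasts, and its 2 measured probes disagreed. The brightest probe spans 3255 bases of genome on the minus strand of chromosome 19 and so crosses an intron, and it lies within the coding part of the actin sequence, which is nearly the same in all actins. It read 5.46, 5.69, 5.50 and 5.52. Its genotype difference was 0.22 ± 0.20 untreated and 0.02 ± 0.20 with palmitate, and the latter was -0.14 when arrays were scaled to their median. The other measured probe, farther toward the 3′ end of the transcript at chr19:34316060-34316119, read -0.78, 1.40, -1.39 and 0.67. It was higher in Drp1LiKO by 2.18 ± 0.20 (4.54-fold) untreated and by 2.07 ± 0.21 (4.19-fold) with palmitate. The remaining 2 Acta2 probes were dim on all arrays. Of these, 1 targets the same transcript at position 1641, farther toward the 3′ end than the measured probe at 1278. Whether the brighter probe also captured other actins was not tested. Because the brightest probe stands for each gene, Acta2 was not among the genes counted past 2-fold, and with the dimmer probe in its place it would be in both pairs. The first 30 bases of both measured probes are shown so that the disagreement can be traced.
Acta2 probe 1: atcatcaccaactgggacgacatggaaaag
Acta2 probe 2: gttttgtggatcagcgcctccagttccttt

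Des encodes desmin, the intermediate filament protein used as a marker of rodent stellate cells. Neither of its 2 probes was detected on any array. The levels ran from -6.40 to -4.12 over both probes and all arrays, so no fold is given.

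**Figure D3:**
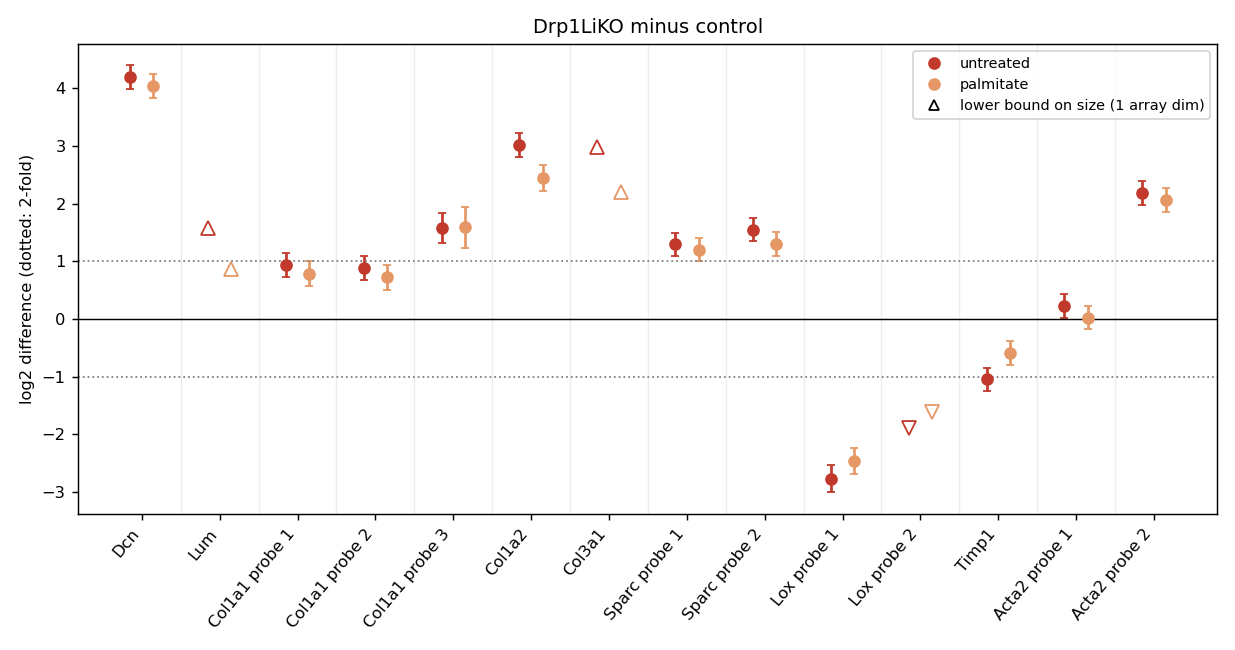
Drp1LiKO minus control for each measured probe (y axis: log2 difference; x axis: probes; points: measured differences with the scanner's spot error; open triangles: lower bounds where 1 array was dim; dotted lines: 2-fold). The brighter Acta2 probe stands at 0.22 untreated and the dimmer at 2.18, and Lox lies below -1 on both probes.

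No member was past 2-fold between palmitate and untreated. In control hepatocytes the count was 0 of the 7 genes compared, where 3.49% of 18772 genes were, 2.29% higher and 1.2% lower with palmitate. In Drp1LiKO hepatocytes it was 0 of 9, where 4.56% of 19746 genes were, 2.97% higher and 1.59% lower. The members' differences ran from -0.26 to 0.71 in control and from -0.84 to 0.82 in Drp1LiKO. Dcn was higher with palmitate by 0.71 ± 0.21 in control and by 0.55 ± 0.20 in Drp1LiKO, and Lox by 0.51 ± 0.21 and 0.82 ± 0.26 on its brighter probe. Col1a2 was lower with palmitate, at -0.26 ± 0.23 in control and -0.84 ± 0.20 in Drp1LiKO, and so was the dimmer Acta2 probe, at -0.62 ± 0.21 and -0.73 ± 0.20. The Col1a2 values turned positive, at 0.35 and 0.36, when all its probes were averaged, 3 of them dim. Timp1 differed by 0.16 ± 0.20 in control and 0.61 ± 0.20 in Drp1LiKO. Each of these comparisons shares its arrays with the genotype comparisons and lies between slides.

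The genotype difference was close in the 2 conditions for most genes measured on all 4 arrays. Palmitate minus untreated, the genotype difference shifted by -0.15 ± 0.29 for Dcn, -0.15 ± 0.30 for Col1a1, -0.58 ± 0.31 for Col1a2, -0.09 ± 0.29 for Sparc, 0.31 ± 0.33 for Lox and -0.20 ± 0.29 for Acta2, with Timp1 given above. Col1a2 and Timp1 had the widest shifts, and both stood closer to control with palmitate. All 7 shifts lay within 2 spot errors of 0, an error that leaves out the mice.

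**Figure D4:**
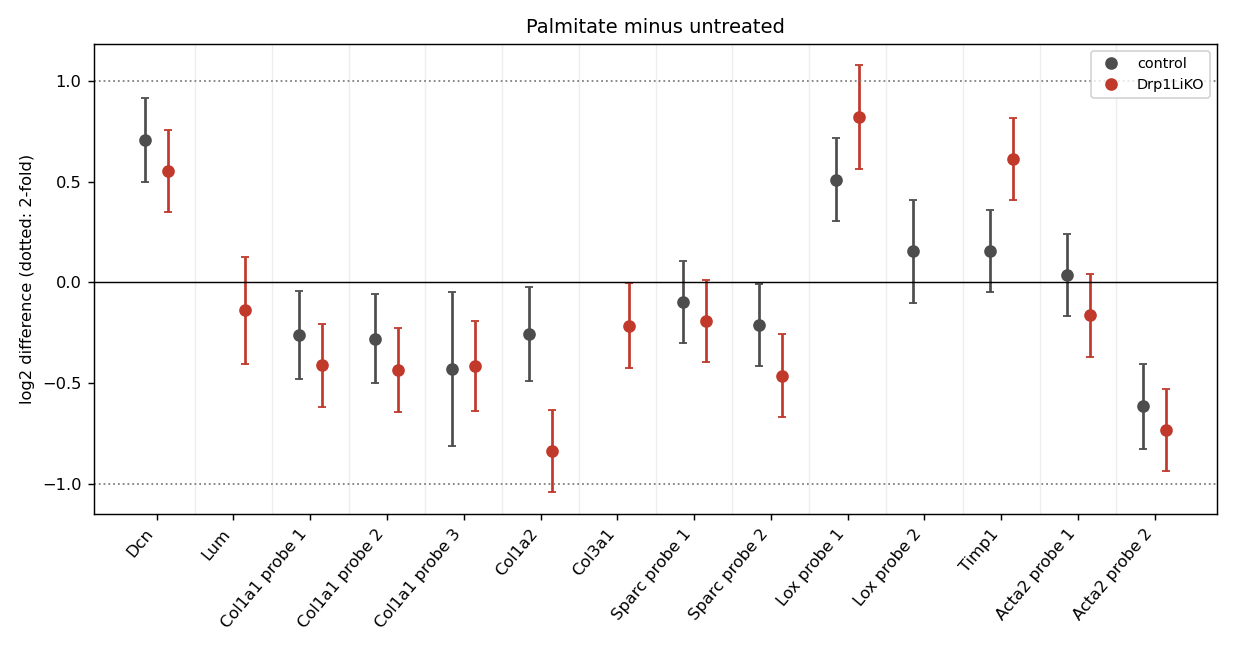
Palmitate minus untreated for each measured probe in control and in Drp1LiKO hepatocytes (y axis: log2 difference; points: difference with the scanner's spot error; dotted lines: 2-fold). Every difference lies inside the dotted lines, from -0.84 for Col1a2 to 0.82 for Lox in Drp1LiKO; Lum, Col3a1 and Lox probe 2 have a point in 1 genotype because they were dim in the other.

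Upstream sequence was found for 6 of the 10 genes (Col1a2, Col3a1, Sparc, Timp1, Acta2 and Des) in a RefSeq table of GRCm38.p6. It was searched on both strands for the TATA box as TATAAA, the CCAAT box as its own letters, the Sp1 type GC box as GGGCGG and the AP-1 element as TGANTCA within the 250 bases before the annotated start, and none of the matches overlapped another. The CArG box, as CC, 6 bases of A or T and GG, was searched in the same way. Col1a2, Col3a1 and Timp1 are shown because they were past 2-fold in Drp1LiKO, in opposite directions, and hold a match, which is in capitals. They lie on the plus strand at chr6:4505368-4505617, chr1:45311288-45311537 and chrX:20869916-20870165.
Col1a2: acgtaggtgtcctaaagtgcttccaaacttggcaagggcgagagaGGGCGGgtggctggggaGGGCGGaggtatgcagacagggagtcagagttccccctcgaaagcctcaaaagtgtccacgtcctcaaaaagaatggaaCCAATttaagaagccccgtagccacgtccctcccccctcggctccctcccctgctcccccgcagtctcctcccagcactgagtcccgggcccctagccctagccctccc
Col3a1: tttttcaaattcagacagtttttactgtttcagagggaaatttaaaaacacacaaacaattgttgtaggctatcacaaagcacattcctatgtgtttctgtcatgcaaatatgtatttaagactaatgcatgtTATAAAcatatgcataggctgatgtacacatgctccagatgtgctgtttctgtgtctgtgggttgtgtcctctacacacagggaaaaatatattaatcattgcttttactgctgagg
Timp1: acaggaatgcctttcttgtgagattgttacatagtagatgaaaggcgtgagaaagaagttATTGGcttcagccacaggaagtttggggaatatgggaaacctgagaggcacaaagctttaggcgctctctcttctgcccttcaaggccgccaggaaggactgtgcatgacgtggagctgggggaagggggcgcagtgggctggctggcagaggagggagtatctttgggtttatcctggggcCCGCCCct

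The Col1a2 sequence held GGGCGG at 2 places and CCAAT once, from 109 to 105 bases before the start. Col3a1 held TATAAA from 117 to 112 bases before its annotated start, and Timp1 held CCAAT and GGGCGG on the opposite strand. Des held GGGCGG at 2 places, while Sparc and Acta2 held none of the strings searched. TGANTCA and the CArG box were found in none of the 6. Of 32536 distinct sequences of the same length in the table, 33.8% held CCAAT, 33.0% GGGCGG, 12.3% TATAAA, 6.73% TGANTCA and 1.48% a CArG box. The 3 printed sequences differed in base composition, with 62% G or C in Col1a2, 35.2% in Col3a1 and 54.4% in Timp1, against a median of 52.4%. A match describes letters only, and no match says nothing about a factor.

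The patterns of the 7 genes measured on all 4 arrays differed among themselves. After each gene was centred on its own mean, Col1a1 and Sparc were the closest pair, with a root mean square distance of 0.22 on the log2 scale, and Dcn and Lox the farthest at 3.37. Col1a1 and Col1a2, whose chains share 1 trimer, lay 0.95 apart. The 5 genes outside the list closest to the mean of the 7 patterns were Afap1, Fnip2, Lce1g, Nucb2 and Igfbp7, at distances of 0.02 to 0.03 over 4 arrays. That mean mixes genes of opposite direction, and 1399 of 13691 genes lay within 0.25 of it. Single members, looked at after the values were seen, had fewer such neighbours where the difference was wide: 6 genes lay within 0.25 of Dcn, the closest being Ifit3b at 0.04, 9 within 0.25 of Col1a2, the closest being Ctss at 0.13, and 1 within 0.25 of Lox, Ttk at 0.21.

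Other genes of the matrix pathway were read from 7 lists holding 180 genes. Untreated, 33 of the 135 genes compared were at least 2-fold higher in Drp1LiKO and 9 at least 2-fold lower, with a median difference of 0.06. With palmitate, 26 of 132 were higher and 9 lower, with a median of 0.04. The remaining 93 and 97 genes lay within 2-fold. A gene detected on the Drp1LiKO array alone can only come out higher or level. Under this first setting, 6.11% of all genes compared were higher and 4.58% lower untreated, and 4.28% and 3.46% with palmitate. Among the 115 and 109 genes detected on both arrays, 19 were higher and 9 lower untreated, and 13 and 9 with palmitate. Of all 17652 and 16784 genes so detected, 1378 and 933 were past 2-fold, 788 and 519 of them higher. With arrays scaled to their median, 27 of the related genes were higher and 13 lower untreated, and 23 and 11 with palmitate. Of all genes under that scaling, 2256 of 19874 and 1488 of 18890 were past 2-fold, 969 and 622 of them higher.

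Among 22 other collagens, 12 were compared untreated, of which 4 (Col5a1, Col6a1, Col6a3 and Col8a1) were at least 2-fold higher in Drp1LiKO and Col4a5 lower. Col5a1, whose chain forms the core on which type I fibrils start, read -3.58 and -1.92 untreated and -3.89 and -1.62 with palmitate, differences of 1.66 and 2.27. Col6a1, Col6a3 and Col8a1 were dim on both control arrays, with lower bounds of 2.27, 1.49 and 1.41 untreated and 1.34, 1.39 and 1.08 with palmitate. Col4a5, a basement membrane chain, stood at -1.48 untreated and -1.07 with palmitate, and Col4a1 differed by 0.85 and 0.40. With palmitate Col5a3, higher at a bound of 1.03, and Col12a1, at -1.06, were also past 2-fold.

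Of 26 genes of collagen folding, trimming and cross-linking, 21 were compared in each pair, and the same 4 genes were past 2-fold in both. Fkbp10, a prolyl isomerase of the endoplasmic reticulum that acts on procollagen, was higher in Drp1LiKO by 2.28 and 2.44. Serpinh1, which encodes the collagen chaperone Hsp47, was higher by 2.29 and 2.33, reading -2.13, 0.16, -2.02 and 0.31 on the 4 arrays. Adamts2, which trims the amino end of procollagen, was higher by 2.52 untreated and at a bound of 1.81 with palmitate. Pcolce2, an enhancer of procollagen trimming at the other end, was lower, reading 1.08 and -0.92 on the untreated control and Drp1LiKO arrays and differing by -1.64 with palmitate. Crtap, a partner of prolyl hydroxylase in the endoplasmic reticulum, stood at -0.71 and -0.77. The list's median was 0.00 untreated and -0.12 with palmitate.

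Of 37 other matrix genes, 22 were compared in each pair. Untreated, 7 were at least 2-fold higher in Drp1LiKO (Prelp, Postn, Tnc, Fbn1, Fbln5, Lama4 and Lamb1) and Efemp1 was lower, and with palmitate 5 were higher (Prelp, Tnc, Fbn1, Lama4 and Lamb1) and Nid2 was lower. Other detected probes of these genes, measured or as bounds, did not all pass 2-fold. Untreated they gave -0.04 for Lama4, 0.56 for Fbn1, 0.71 for Fbln5, 1.61 for Postn and 1.66 for Tnc. For Lamb1 they ran from 0.00 to 1.07 untreated. With palmitate, other probes gave 0.35 for Tnc and 1.32 for Lamb1. Prelp, a leucine-rich proteoglycan like decorin, was higher by 1.91 and 2.17. Lamb1, a laminin chain, was higher by 1.34 and 1.03. Tnc, which encodes tenascin C, was higher by 2.06 untreated and at a bound of 1.34 with palmitate. Efemp1, a fibulin, stood at -2.23 untreated and -0.65 with palmitate. Fibronectin, Fn1, read between 7.90 and 8.08 on all 4 arrays.

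Of 25 metalloproteinases and inhibitors, 19 were compared in each pair. Untreated, 6 were at least 2-fold higher in Drp1LiKO and 2 lower, and with palmitate 5 were higher and 1 lower. The other inhibitors lay on both sides of control. Timp2, which also takes part in activating a gelatinase, stood at -2.23 untreated and -2.69 with palmitate, and a second probe gave -1.98 untreated. Timp3, which stays bound to the matrix, was higher by 2.23 and 2.19 and by 2.24 untreated on a second probe. Plau, the urokinase plasminogen activator, was higher by 1.48 and 1.24. The interstitial collagenase Mmp13 was dim on the control array alone, and was higher in Drp1LiKO at a bound of 1.51 untreated and by 2.60 with palmitate. It was also higher with palmitate, at a bound of 1.35 in control and by 2.45 in Drp1LiKO.

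Of 30 genes of TGF-β and PDGF signalling, the pathways that drive stellate cell activation and growth, 29 were compared untreated, with 5 at least 2-fold higher in Drp1LiKO and 2 lower, and 28 with palmitate, with 3 higher and 1 lower. Lrrc32, which holds latent TGF-β at the cell surface, was higher by 2.71 and 2.51, and the co-receptor Eng by 1.63 and 1.50. Ltbp1 and Ltbp2, latent TGF-β binding proteins or relatives of them, stood at -1.11 and -1.19 untreated and at -1.06 and -0.98 with palmitate. Tgfb1 itself stood at -0.46 and -0.36. Pdgfrb, the PDGF receptor of stellate cells and pericytes, was dim on both control arrays and higher at bounds of 2.22 untreated and 0.71 with palmitate.

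Of 21 contractile and myofibroblast genes, 20 were compared in each pair. Tagln, Myl9 and Tgfb1i1 were at least 2-fold higher in Drp1LiKO in both pairs, against 2 genes lower untreated and 3 with palmitate. Myl9, a smooth muscle myosin light chain, was higher by 1.99 and 1.58, and Tagln, an actin-binding protein of smooth muscle, by 1.83 and 1.23. S100a4, a calcium-binding protein also made by macrophages, was lower, at -1.91 and -2.05, and the smooth muscle gene Cnn1 stood at -0.72 untreated and -1.68 with palmitate. The medians of this list were -0.04 and -0.08.

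Of the defining markers of stellate cells, Des, Gfap and Ngfr were dim on all 4 arrays, while Lrat, Reln and Pdgfrb were detected on 1, 3 and 2 of them. Lrat, the enzyme that esterifies retinol for storage, was detected on the untreated Drp1LiKO array alone, at -1.87, and at background on the other arrays. Of 22 stellate cell markers outside the 10 genes, 15 were compared untreated, with 6 at least 2-fold higher in Drp1LiKO (Lrat, Reln, Pdgfrb, Hgf, Cygb and Pth1r) and none lower, and 12 with palmitate, with Reln and Cygb higher. Only 8 of the 15 and 6 of the 12 were detected on both arrays. A marker detected on the Drp1LiKO array alone cannot come out lower, so the lack of lower ones is partly set by detection. Over all genes compared, 6.11% were higher untreated and 4.28% with palmitate. Reln was higher by 1.11 untreated and at a bound of 1.26 with palmitate, and Cygb by 2.45 and at a bound of 1.51. Bambi, Nes and Vim were measured on all arrays, and their differences ran from -0.63 to 0.38. The summed linear level of the list, relative to each array's 75th percentile, was 152, 141, 156 and 142, and Vim, which many cultured cells express, made up most of it.

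Most of the compared markers of macrophages and endothelial cells also stood higher in Drp1LiKO. Of 8 macrophage markers, 6 were at least 2-fold higher in Drp1LiKO untreated, and 4 of the 7 compared with palmitate. The share over all genes compared was 6.11% higher untreated and 4.28% with palmitate. Adgre1 was higher by 2.44 and 2.10 and Cd68 by 2.01 and 1.69, while Clec4f, the Kupffer cell lectin, was dim on both control arrays with bounds of 2.38 and 0.63. The summed level of the macrophage list was 10.4 and 33.2 on the untreated control and Drp1LiKO arrays and 12.8 and 31.8 with palmitate. Of 7 endothelial markers, 5 were at least 2-fold higher untreated, and 3 of the 6 compared with palmitate. Detected on both arrays of a pair were 6 macrophage and 6 endothelial markers untreated, and 5 and 4 with palmitate. The others compared were detected on the Drp1LiKO array alone and could not come out lower. Stab2 was higher by 1.25 and 1.05, with its 3 other detected probes between a bound of 0.24 and 2.13 untreated, and Pecam1 by 0.98 and at a bound of 0.30, with a summed level for the list of 1.40, 4.03, 1.24 and 2.79.

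Other cell types that can hold matrix transcripts were read the same way. For portal fibroblasts, the defining genes Thy1 and Eln were at background on all arrays, Fbln2 stood at -0.61 and -0.68 and Cd34 at 1.31 and 2.53 in Drp1LiKO against control, and the summed level was 31.0, 21.7, 28.0 and 18.8. For mesothelial cells, Msln was higher by 1.53 untreated and at a bound of 1.27 with palmitate, Wt1 was detected on the untreated Drp1LiKO array alone at -4.69, and the summed level stayed at or under 0.35. Myh11, the defining gene for smooth muscle, stood at -0.64 and -0.76, and that list's summed level lay between 30.5 and 41.5. The 4 smooth muscle and pericyte genes compared ran from -0.72 to 0.70 untreated and from -1.68 to 0.30 with palmitate. For cholangiocytes, Krt19 stood at -0.37 and -0.40, Epcam was at background on all arrays and the summed level lay between 4.97 and 9.59. The 3 cholangiocyte genes compared ran from -0.37 to 0.45 untreated and from -0.45 to 0.21 with palmitate. The hepatocyte genes Alb and Ttr were 0.20 and 0.50 higher untreated and 0.28 and 0.50 higher with palmitate. Tat was the 1 hepatocyte gene past 2-fold, higher by 1.50 and 1.22. Of the 6 hepatocyte genes, 5 were higher and 1 lower untreated, and 4 were higher and 2 lower with palmitate. The lowest differences were -0.66 and -0.72. Their summed level lay between 532 and 654. The part of any of these cell types in the differences of Dcn, the collagens, Lox or Timp1 was not tested.

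**Figure D5:**
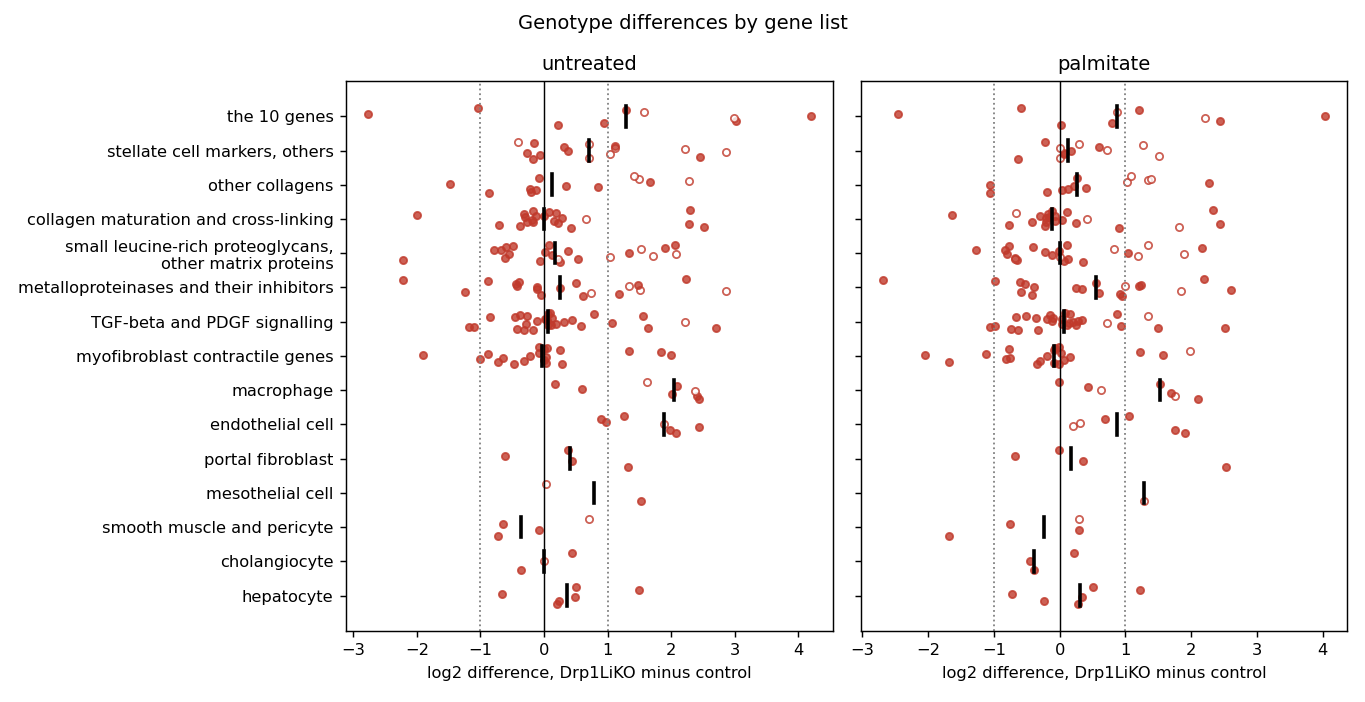
Drp1LiKO minus control for every compared gene of the 10 genes, the 7 related lists and the lists of other cell types (x axis: log2 difference; left panel untreated, right panel palmitate; points: genes, open where 1 array was dim and the value is a bound; black bars: median; dotted lines: 2-fold). The median of the 10 genes lies at 1.30 and 0.87, those of the macrophage list at 2.05 and 1.53, and those of the collagen maturation and contractile lists near 0.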

How the data were processed

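The members and gene lists were chosen with earlier results of these data known. Each sample was 1 Agilent SurePrint G3 Mouse 8x60K array. Per the file headers, the authors' scanner tables hold background-subtracted, processed intensity values from Feature Extraction 10.7.1.1 with mm9 annotation, whereas the submitters' processing notes name 9.5.1.1. The labels and the methods name different RNA kits. The raw table of the untreated control also belongs to a sample of another series. Here, log2 processed intensity minus the array's 75th percentile over non-control spots was computed, outlier spots were left out and spots of a probe averaged (Python 3.11.15, pandas 2.3.3). The deposited table of normalized intensity values, with equal quantiles on all arrays, served as an alternative. The brightest detected probe stood for a gene. A value not well above background was raised to the lowest detected value of its array where that was higher, giving bounds. Genes detected on at least 1 of 2 arrays were compared, and a log2 difference of 1 or more was counted. With 1 array per group and members chosen on these contrasts, no test was made. The code that makes the calls was checked on simulated arrays, which does not measure the error of the calls on these arrays. Named genes were the 10 members, Dnm1l, up to 4 genes per related list with the widest mean genotype difference among genes detected on all arrays and up to 2 past 2-fold the other way, defining cell type genes and the 5 closest patterns; 1 gene under this rule is not reported here, and others were named after their values were seen. Of 9 alternatives, 8 were planned and 1, the second brightest probe, was added after seeing the Acta2 probes. Normexp used limma 3.58.1 with an offset of 50.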

Additional observations from a re-analysis of the deposited data

How the results depend on the processing

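No member past 2-fold changed direction under any of the 9 alternatives. Below 2-fold, the sign of the Acta2 genotype difference with palmitate (-0.14 under median scaling), of the Acta2 palmitate difference in control (0.04, against -0.02 under median scaling and -0.62 with the second probe) and of the palmitate differences of Col1a2, Col3a1 and Sparc (averaged probes) turned. Dcn (from 3.77 to 4.21) and Lox (from -2.95 to -1.61) were past 2-fold in both genotype comparisons under all of them. The deposited table, median scaling and the percentile over detected probes kept all 34 member values within the spot error. Normexp correction moved 11 of 34, and the related genes past 2-fold went from 42 to 18 untreated and from 35 to 16 with palmitate, and all genes from 2124 to 963 and from 1462 to 613. Timp1 and the Lum bound (0.48) then fell under 2-fold untreated, Col3a1 went from bounds of 2.98 and 2.20 to 1.44 and 1.08, and Lox from -2.77 and -2.46 to -1.80 and -1.78. Averaging all probes left 2 of the 5 members past 2-fold with palmitate (Dcn and Lox) and 20 related genes, since dim probes enter the mean. Col1a2 was then 0.58 untreated and 0.59 with palmitate and Col3a1 0.00 in both. Untreated, 7 members were again past 2-fold, with Col1a1 and Acta2 (each 1.04) in place of Col1a2 and Col3a1. Requiring detection on both arrays left 22 related genes with palmitate and left Col3a1 and Lum out of the genotype comparisons. With no filter there were 55, and 1 member (Col3a1, dim on both arrays) was past 2-fold for palmitate in control against 0. All genes past 2-fold then numbered 4688 and 3943 for genotype and 2894 and 3537 for palmitate in control and in Drp1LiKO, against 655 and 900. They were 1378 and 933, and 186 and 432, when both arrays had to be detected, 191 and 302 for palmitate after normexp, and 1070 and 1390 for palmitate with dim probes at their own value. With the second probe, Acta2 was 2.18 and 2.07 higher in Drp1LiKO. Median scaling moved the median of all genes to -0.20 and -0.19 and the share of higher calls from 57.2% to 43.0% untreated and from 55.3% to 41.8% with palmitate. No paired analysis was possible because the groups share only 1 replicate number. The untreated and the palmitate genotype differences are each within 1 slide, and no fit over both was made because the members were selected on them. Precision is limited by 1 array per group, and for Lum and Col3a1 by signal over background.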
